A study of Mus musculus with 4 samples.

Results

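The CXC chemokines and fractalkine are secreted or membrane-bound attractants of leukocytes, and 10 of their genes were compared between 4T1-A and 4T1-S, which derive from the mouse mammary carcinoma line 4T1. The genes were taken by name, with earlier results of these data known: Cxcl1, Cxcl2, Cxcl5, Cxcl9, Cxcl10, Cxcl11, Cxcl12, Cxcl14, Cxcl16 and Cx3cl1 (fractalkine). They were represented by 13 of the 41174 probes on the array and are 10 of its 27670 gene names. 4T1 grows in BALB/c mice, and the series' title calls 4T1-S a highly immunogenic sub-line. Total RNA of each sub-line was hybridised to 2 one-colour Agilent arrays, and the labels name no treatment, no genetic change and no origin for either sub-line beyond the parental line. Whether replicate arrays stem from different cultures is not given in the labels, and the p-values then cover only the spread between arrays, which may be technical. All 4 arrays lay on 1 slide with the 4T1-A arrays side by side at one end, so that sub-line and slide position cannot be told apart.

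In these arrays the interferon-inducible Cxcr3 ligands Cxcl10 and Cxcl11 were higher in 4T1-S. The measured fold was 4.39 for Cxcl10, whose call held in each alternative tried. For Cxcl11 it was 4.10 with 1 of 2 4T1-A arrays at background, the log2 difference of 2.04 was 0.92 with another background correction, and the call was lost in 2 of 15 alternatives. The transcript of the receptor of both, Cxcr3, was 8.46-fold lower in 4T1-S. Neither Cxcl1 nor Cxcl5, attractants of neutrophils, passed the test, and their measured differences had opposite signs. Cxcl16 and Cx3cl1, made as membrane-anchored proteins, were well above background in both sub-lines with log2 differences of 0.04 and 0.12 that did not pass. Cxcl2, Cxcl9, Cxcl12 and Cxcl14 were not well above background on any array.

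Chemokines bind seven-helix receptors on leukocytes and are held on glycosaminoglycan chains of cell surfaces and matrix, where they form the gradients that cells follow. Cxcl1, Cxcl2 and Cxcl5 act on Cxcr2, mainly of neutrophils, and are classical targets of NF-kappaB. Cxcl9, Cxcl10 and Cxcl11 act on Cxcr3 of activated T cells and NK cells and are induced by interferons, in the case of Cxcl10 by type I and type II interferons and NF-kappaB. Carcinoma cells can make both kinds, and 4T1 tumours are known for the large numbers of neutrophils they draw.

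The promoters of 4 genes are shown because these genes lie close together on chromosome 5 and differ in whether a transcript was detected. In the order of gene starts a single coding gene, Art3, comes between Cxcl9 and Cxcl10, and Cxcl1 and Cxcl2 are direct neighbours. Where Art3 ends was not looked at. Each sequence is the 250 bases before the annotated start, from RefSeq, assembly GRCm38.p6, which is of C57BL/6J and not of the strain of 4T1. It is written 5′ to 3′ on the strand of the gene. Capitals mark matches to the core of the interferon-stimulated response element (ISRE), which is GAAA, any 2 bases and GAAA again, and to a kappaB site, which is GGGA, any 2 bases and TTCC. Cxcl10 lies on the minus strand at chr5:92348890-92349139.
Cxcl10: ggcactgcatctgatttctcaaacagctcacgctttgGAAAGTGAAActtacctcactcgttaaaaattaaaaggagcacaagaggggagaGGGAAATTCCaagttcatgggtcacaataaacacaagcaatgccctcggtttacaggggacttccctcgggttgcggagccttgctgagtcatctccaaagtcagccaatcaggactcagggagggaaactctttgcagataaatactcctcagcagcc
Cxcl9, also on the minus strand, is shown from chr5:92328080-92328329.
Cxcl9: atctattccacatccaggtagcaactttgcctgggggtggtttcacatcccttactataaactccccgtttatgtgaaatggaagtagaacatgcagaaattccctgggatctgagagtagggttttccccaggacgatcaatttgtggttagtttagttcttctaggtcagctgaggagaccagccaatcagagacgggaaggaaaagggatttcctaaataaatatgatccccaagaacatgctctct
Cxcl1 and Cxcl2 lie on the plus strand, at chr5:90890995-90891244 and chr5:90903649-90903898.
Cxcl1: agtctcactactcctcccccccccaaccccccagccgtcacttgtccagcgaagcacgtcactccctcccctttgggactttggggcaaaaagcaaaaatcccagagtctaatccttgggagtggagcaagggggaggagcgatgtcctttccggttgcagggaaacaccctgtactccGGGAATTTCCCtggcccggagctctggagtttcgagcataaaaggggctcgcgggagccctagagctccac
Cxcl2: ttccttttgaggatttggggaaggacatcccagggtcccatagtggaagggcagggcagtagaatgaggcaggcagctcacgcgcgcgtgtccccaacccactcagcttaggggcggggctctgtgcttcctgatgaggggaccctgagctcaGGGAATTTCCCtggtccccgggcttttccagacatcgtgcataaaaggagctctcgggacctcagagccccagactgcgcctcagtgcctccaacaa

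Both strands were searched for the ISRE core, the kappaB site, an AP-1 site (TGANTCA) and the interferon-gamma activated site (GAS, TTCNNNGAA), and the strand of the gene for a TATA box (TATAAA). The Cxcl10 window held the ISRE match GAAAGTGAAA at 213 to 204 bases before the start, the kappaB match GGGAAATTCC at 159 to 150 and an AP-1 match at 74 to 68. Cxcl1 and Cxcl2 each held the kappaB match GGGAATTTCC, at 71 to 62 and 97 to 88 bases before the start. In both, a second kappaB match on the opposite strand lay 1 base further on and overlapped it. The same 10 letters stood before Cxcl1, which was well above background on 4 of 4 arrays, and before Cxcl2, which was above it on none. Cxcl2 was read by 1 probe, and whether that probe can detect the transcript was not tested. The part of these letters in either signal was not tested.

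The Cxcl9 window held no ISRE, kappaB, AP-1 or GAS match and a TATAAA at 195 to 190 bases before the start. Cxcl14 had an ISRE match, GAAACAGAAA, at 172 to 163 and a GAS match at 191 to 183, Cx3cl1 only a TATAAA at 6 to 1, and Cxcl12 no match. Of the 32851 promoters in the table, 2.98% held an ISRE core, 1.21% a kappaB site, 6.75% an AP-1 site, 7.02% a GAS and 7.59% a TATAAA on the strand of the gene. Cxcl5, Cxcl11 and Cxcl16 were not among the 7 members with an entry. A match describes the letters only, and a window without one says only that these letters are not in it.

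**Figure D1:**
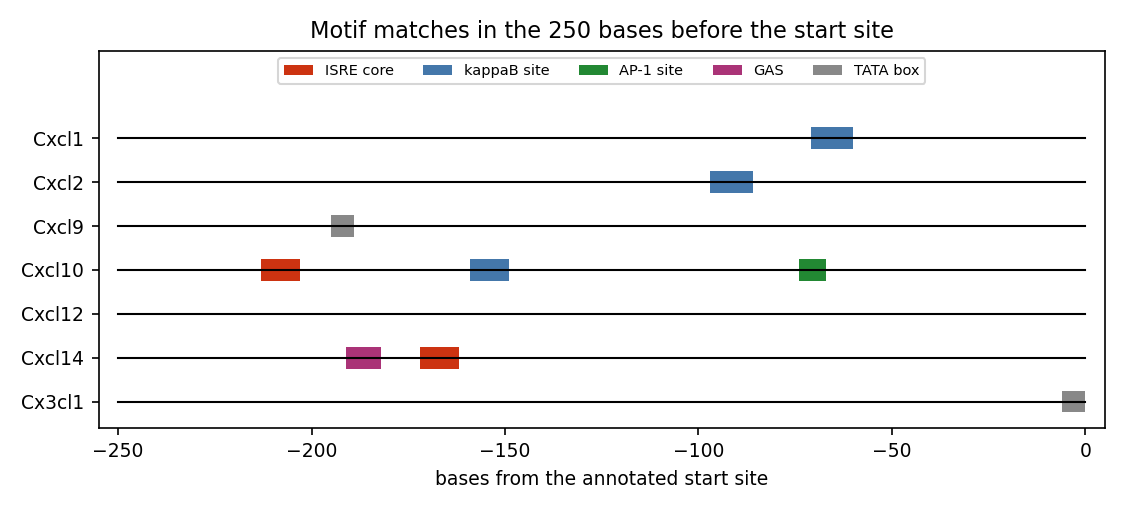
Positions of motif matches (coloured boxes) in the 250 bases before the annotated start of the 7 members with a RefSeq promoter entry, in bases from the start. Cxcl10 is the member with an ISRE, a kappaB and an AP-1 match, and Cxcl1 and Cxcl2 each have 1 box of 2 overlapping kappaB matches.

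Values are given as scaled intensity, the background-subtracted spot intensity divided by the 75th percentile of its array, and differences as log2 of 4T1-S over 4T1-A with their standard error (SE). A scaled intensity depends on the probe, so that it compares arrays and not genes. Between 54.9% and 59.2% of 43379 spots per array were well above background, the lowest such signal lay at a scaled intensity of 0.0488 to 0.0596, and no probe of a member was saturated. Replicate arrays correlated at r = 0.992 and r = 0.993 across 16173 genes, which are not independent replicates. All 7 epithelial markers were above background on 4 of 4 arrays, with a summed scaled intensity of 244 and 256 in 4T1-A against 228 and 192 in 4T1-S, a sum carried mainly by Krt8 and Krt18. In limma's fit 4 of the 7 passed as lower in 4T1-S (Epcam, Krt14, Krt19 and Cdh1), against 3.01% of all genes tested. None passed as higher, and Krt8, Krt18 and Krt5 did not pass. Krt5 went the other way, with a log2 difference of 0.52 ± 0.20 (95% interval 0.06 to 0.99, limma adjusted p = 0.138). In whole cultures, fewer expressing cells and less RNA per cell cannot be told apart.

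**Figure D2:**
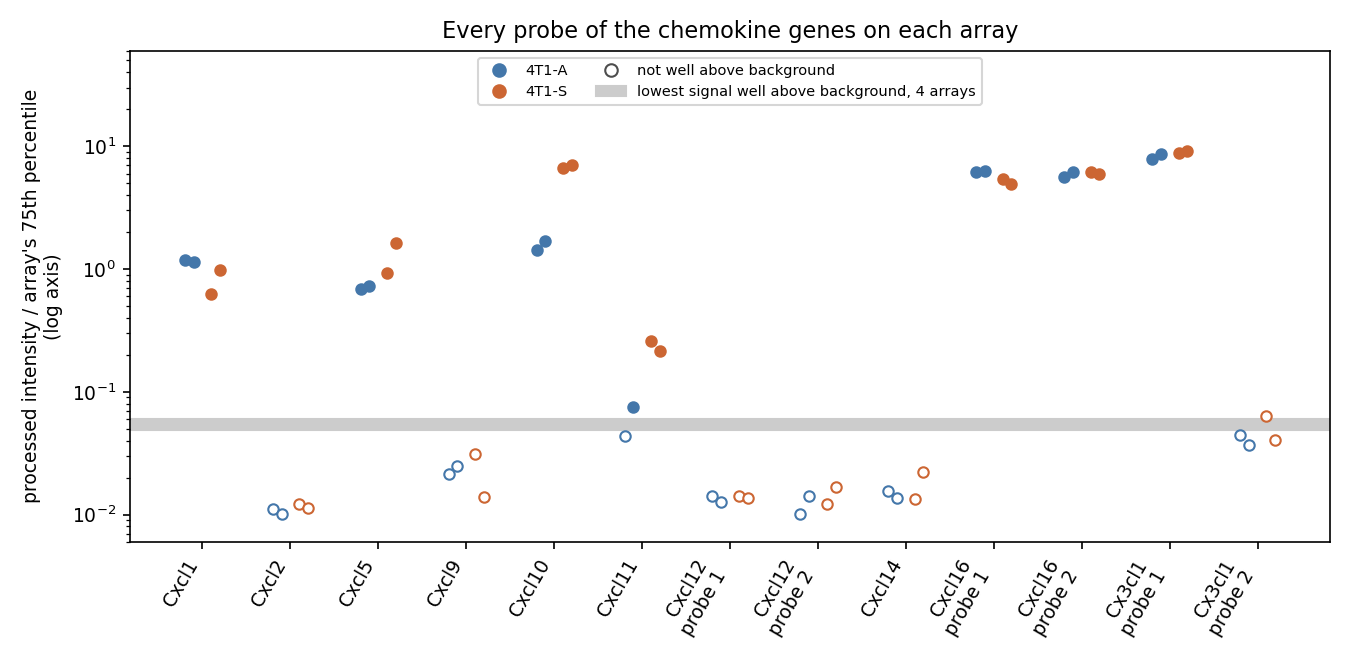
Scaled intensity (log axis) of each of the 13 member probes on the 2 arrays of 4T1-A (blue) and the 2 of 4T1-S (orange), with open circles where the spot was not well above background. The grey band spans the lowest signals called well above background, 0.0488 to 0.0596. Cxcl10 and Cxcl11 stand apart by sub-line, and the probes of Cxcl2, Cxcl9, Cxcl12 and Cxcl14 show open circles only.

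Cxcl10, known as IP-10, attracts activated T cells and NK cells. Its probe (A_51_P432641, for NM_021274) had a scaled intensity of 1.43 and 1.68 on the 4T1-A arrays and of 6.60 and 7.02 on the 4T1-S arrays. Both 4T1-S arrays were far above both 4T1-A arrays, and the scanner software's own error of these signals was between 8% and 8.55%. The log2 difference was 2.14 ± 0.19 (SE, n = 2 arrays per sub-line; 95% interval 1.69 to 2.58; limma, Benjamini-Hochberg adjusted p = 0.000631). It ranked 43rd from the top among 16173 genes tested. The call held in each of 16 alternatives, with differences of 1.84 to 2.25 and adjusted p of 1.21e-10 to 0.0204.

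Cxcl11, or I-TAC, shares the receptor Cxcr3 and lies next to Cxcl10 on chromosome 5. The probe (A_52_P676403, for NM_019494) gave 0.0439 and 0.0746 in 4T1-A against 0.257 and 0.214 in 4T1-S. Of the 2 4T1-A arrays 1 was well above background, and both 4T1-S arrays were, so the lower end of the fold rests on signals at the detection limit. The log2 difference was 2.04 ± 0.27 (95% interval 1.40 to 2.67, limma adjusted p = 0.00521), the 53rd highest of all genes tested. With normexp background correction it was 0.92 (adjusted p = 0.026). The call was lost without a filter on background (adjusted p = 0.0766) and without 4T1-S replicate 1 (1.91, adjusted p = 0.063), and adjusted p ranged from 2.88e-12 to 0.0766 over the alternatives. The RefSeq table, of the C57BL/6J genome, lists Cxcl11 as a transcribed pseudogene, so the array's own symbol was used.

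Cxcl9, or MIG, is the Cxcr3 ligand most closely tied to interferon gamma. Its probe (A_51_P461665) read 0.0214 and 0.0251 in 4T1-A against 0.0310 and 0.0140 in 4T1-S, all short of the limit for well above background, so no difference was tested. Of the Cxcr3 ligands, Cxcl10 and Cxcl11 were thus measured in 4T1-S and Cxcl9 was at background in both sub-lines. A weaker test in the scanner files, of signal above background with significance, passed for Cxcl9 on 3 of 4 arrays.

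Among the neutrophil attractants, Cxcl1, also known as KC, had a scaled intensity of 1.19 and 1.15 in 4T1-A against 0.621 and 0.976 in 4T1-S (A_51_P363187). The sub-lines did not overlap, but the 4T1-S arrays differed from each other by more than the nearer one differed from 4T1-A. The log2 difference of -0.59 ± 0.25 (95% interval -1.16 to -0.02) had an unadjusted p of 0.0453 and did not pass in limma's fit (adjusted p = 0.165). Leaving out 4T1-S replicate 1 gave -0.26, leaving out 4T1-S replicate 2 gave -0.91, with an adjusted p between 0.0728 and 0.547 over the 16 alternatives.

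Cxcl5, also called LIX, gave 0.682 and 0.731 in 4T1-A against 0.928 and 1.62 in 4T1-S (A_52_P295432). The 4T1-S arrays were again the wider pair, and both lay above 4T1-A. Its log2 difference of 0.80 ± 0.27 (95% interval 0.16 to 1.43) had an unadjusted p of 0.0204 and did not pass in limma's fit (adjusted p = 0.11). Without 4T1-S replicate 2 it was 0.39 (adjusted p = 0.407), without 4T1-S replicate 1 it was 1.20 (0.0718), and with scaling to the array median it was 0.51 (0.33). Over the 16 alternatives the adjusted p ranged from 0.0316 to 0.407, and Cxcl5 passed in 1 of them.

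Cxcl2, or MIP-2, binds Cxcr2 as Cxcl1 does. Its scaled intensity was 0.0111 and 0.0102 in 4T1-A against 0.0123 and 0.0114 in 4T1-S, at background on every array. The neutrophil attractants, each read by 1 probe, thus differed in detection, with Cxcl1 and Cxcl5 measured on all 4 arrays and Cxcl2 on none.

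Cxcl12 and Cxcl14 are made without inflammation in many tissues, Cxcl12 largely by stromal cells. The probes of Cxcl12 read 0.0102 to 0.0169 (A_51_P172502) and 0.0127 to 0.0142 (A_52_P685021) over the 4 arrays, and that of Cxcl14 0.0133 to 0.0224. None was well above background on any array of either sub-line, and no difference was tested. The weaker test of signal above background with significance passed for Cxcl14 on 4 of 4 arrays. For Cxcl12 it passed on 2 arrays by A_51_P172502 and on none by A_52_P685021. Of 7 fibroblast markers, Pdgfra was above background on 4 of 4 arrays and Fap, Lum and Pdgfrb on none, and the summed scaled intensity was 0.498 and 0.75 in 4T1-A against 1.12 and 1.09 in 4T1-S. Without Pdgfra, the brightest, it was 0.174 and 0.22 against 0.344 and 0.334. For Col1a1, a collagen chain, 1 of its 3 probes gave a log2 difference of 1.95 ± 0.26 (limma adjusted p = 0.00519). By that probe 4T1-S was at least 2.59-fold higher, a bound set as described for Ccrl2 below and not itself tested. That probe entered the test only through 4T1-S, and the other 2 were not well above background on any array. Of 5 endothelial markers, 4 were above background on no array and Tek on 1. The part of these markers in the differences of the chemokine genes was not tested.

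Cxcl16 and Cx3cl1 are made with a mucin-like stalk and a transmembrane segment, and are released by the proteases Adam10 and Adam17. Cxcl16 was measured by 2 probes. The brighter, A_52_P99888, gave 5.60 and 6.15 in 4T1-A against 6.18 and 5.93 in 4T1-S, with overlapping sub-lines. Its log2 difference was 0.04 ± 0.18 (95% interval -0.38 to 0.47, limma adjusted p = 0.90). The other probe, A_51_P374203, gave 6.20 and 6.24 against 5.43 and 4.91, and a log2 difference of -0.27 ± 0.19 (95% interval -0.71 to 0.17, limma adjusted p = 0.41 over all probes). The probes thus gave opposite signs, neither passed, and the sign of the brighter turned negative in 4 of 16 alternatives.

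Cx3cl1, whose receptor Cx3cr1 marks monocytes, NK cells and microglia, had a scaled intensity of 7.91 and 8.59 in 4T1-A against 8.84 and 9.09 in 4T1-S (A_51_P196925). The 4T1-S arrays were the higher by a small margin. Its log2 difference of 0.12 ± 0.18 (95% interval -0.30 to 0.54) did not pass in limma's fit (adjusted p = 0.705). Relative to the median of all genes tested, 0.13, it was -0.01, and its sign turned with scaling to the array median (-0.17) and with normexp (-0.02). A second probe, A_51_P205129, read 0.0372 to 0.0631 and stayed at background on every array, so the probes of this gene differed in detection.

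Of the 10 members, 6 were tested, since the probe was well above background on 2 of 2 arrays in 4T1-A, in 4T1-S or in both. Of these 2 were higher in 4T1-S, 0 were lower and 4 did not pass, while 3 were higher and 1 lower at an unadjusted p under 0.05. At that threshold 3313 of all 16173 genes tested were higher and 1326 lower, which is the background for such counts in each list below. Cxcl11 entered the test only through 4T1-S, the sub-line in which it was higher, so the filter and its difference are not independent. Over all 16173 genes tested by limma, 6.96% passed at an adjusted p under 0.05, with 3.95% higher and 3.01% lower in 4T1-S. The arrays of the sub-lines did not overlap for 5 of the 6 members, against 59.1% of all genes tested, so the lack of overlap alone is near the background. The median log2 difference was 0.46 over these 6 members and 0.13 over all genes, and the median size regardless of sign 0.69 and 0.31. Cxcl10 and Cxcl11 were among the 0.266% and 0.328% of genes with the highest differences, whereas Cx3cl1 and Cxcl16 lay near the middle of the order, at ranks 8323 and 9511.

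**Figure D3:**
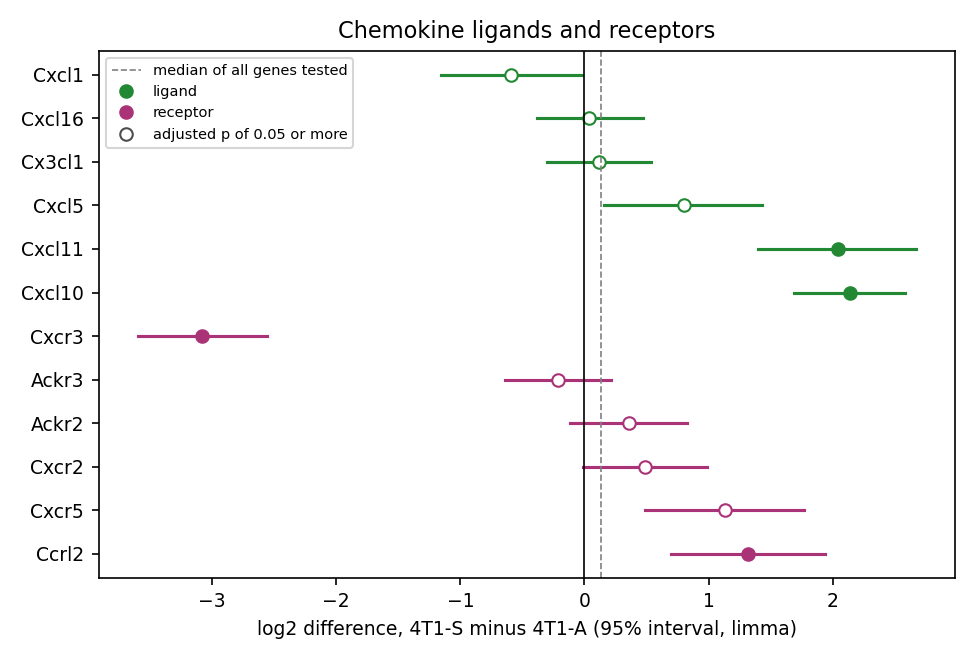
Log2 difference, 4T1-S minus 4T1-A, with its 95% interval from limma, for the 6 members tested (green) and the 6 genes tested of the receptor list (purple), and open circles for those that did not pass. Cxcl10, Cxcl11 and Ccrl2 lie to the right of 0 and Cxcr3 at -3.08 to the left, and the dashed line marks the median of all genes, 0.13.

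The list of CXC, CX3C and atypical chemokine receptors held 12 genes, of which some, such as Ccrl2 and Cxcr5, bind ligands other than the members. Of these 12, 6 were tested, 1 (Ccrl2) was higher, 1 (Cxcr3) was lower and 4 did not pass in limma's fit. At an unadjusted p under 0.05 the counts were 2 and 1, against 3313 and 1326 of all 16173 genes tested. The median log2 difference was 0.43, against 0.13 over all genes. Cxcr3, the receptor of Cxcl9, Cxcl10 and Cxcl11, had a scaled intensity of 2.03 and 2.17 in 4T1-A against 0.296 and 0.208 in 4T1-S (A_51_P319022, for NM_009910). Each array was well above background, and the sub-lines lay far apart. The log2 difference was -3.08 ± 0.22 (95% interval -3.60 to -2.56, limma adjusted p = 2e-04), the 69th lowest of all genes tested. It passed in each of 16 alternatives, at -3.37 to -2.47.

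Cxcr3 is best known from lymphocytes. Of the 10 leukocyte markers on the array, 3 (Cd3e, Cd68 and Csf1r) were above background on 4 of 4 arrays and 4 (Adgre1, Itgam, Ms4a1 and S100a8) on none. Ptprc, which marks all leukocytes, was above background on 1 array, of 4T1-S, by its brightest probe. The summed scaled intensity of the list was 1 and 1.06 in 4T1-A against 0.923 and 0.916 in 4T1-S, and in 4T1-A Cd68 made up more of it than the other markers together. Without Cd68, left out after its values were seen, the other 9 markers summed to 0.472 and 0.454 in 4T1-A and to 0.536 and 0.603 in 4T1-S, the opposite order. Of the 5 leukocyte markers tested none passed in limma's fit, with 1 higher and 1 lower at an unadjusted p under 0.05. Cd3e, the T cell marker, gave 0.0907 and 0.0990 in 4T1-A against 0.0817 and 0.100 in 4T1-S, with a log2 difference of -0.07 ± 0.20 (95% interval -0.53 to 0.39).

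Ccrl2, an atypical receptor that binds chemerin, was the gene of this list that was higher, and is not a receptor of the members. Its probe A_51_P232682 gave 0.0439 and 0.0614 in 4T1-A against 0.105 and 0.159 in 4T1-S, with 1 of 2 4T1-A arrays above background. It entered the test only through 4T1-S, where it was higher. The log2 difference was 1.32 ± 0.27 (95% interval 0.70 to 1.94, limma adjusted p = 0.0296). A second probe, A_52_P334593, gave 0.0347 and 0.0466 against 0.123 and 0.150. It did not reach the limit on either 4T1-A array and so also entered only through 4T1-S. Its log2 difference was 1.76 ± 0.23 (limma adjusted p = 0.00597, in a fit of 23691 probes in which 4.52% passed). By this probe 4T1-S was at least 2.72-fold higher, a bound that was not itself tested. That bound is the 4T1-S mean over the 4T1-A mean, where each 4T1-A array counts at its lowest well-above-background signal, or at the probe's own signal if that is higher. The call of Ccrl2 was lost in 7 of 15 alternatives, with adjusted p from 3.4e-05 to 0.167. Among these were scaling to the array median (1.03, adjusted p = 0.0846), normexp (0.65, 0.07) and leaving out 4T1-S replicate 1 (1.62, 0.0564) or 4T1-S replicate 2 (1.01, 0.167).

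Cxcr2, the receptor of Cxcl1, Cxcl2 and Cxcl5, gave 0.106 and 0.125 in 4T1-A against 0.186 and 0.141 in 4T1-S, low values above background on each array. Its log2 difference was 0.49 ± 0.22 (95% interval -0.01 to 0.99, limma adjusted p = 0.181). Ackr3, an atypical receptor that takes up Cxcl12 and Cxcl11, read 8.13 and 7.42 in 4T1-A against 6.58 and 6.82 in 4T1-S. It was bright on every array, and its log2 difference of -0.21 ± 0.18 (95% interval -0.64 to 0.21) did not pass in limma's fit (adjusted p = 0.483).

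The signalling receptors of Cxcl12, Cxcl16 and Cx3cl1 were not tested. Cxcr4, which binds Cxcl12, was above background on 1 array by 1 of its 2 probes (0.0325 and 0.0476 in 4T1-A, 0.0824 and 0.0464 in 4T1-S). Cxcr6, which binds Cxcl16, read 0.0144 to 0.0247 and Cx3cr1 by its brighter probe 0.0280 to 0.0601, both not well above background on any array. Cxcl16 and Cx3cl1 were thus measured in cells in which the transcripts of their receptors were not well above background. The weaker test of signal above background with significance passed on 4 of 4 arrays for Cxcr6 and for the brighter probe of Cx3cr1. It passed on none for the other Cx3cr1 probe. A further 6 CXC chemokine genes (Cxcl3, Pf4, Ppbp, Cxcl13, Cxcl15 and Cxcl17) were looked up, and 0 of 6 were tested, with Ppbp above background on 1 array.

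Interferon signalling, which induces Cxcl10 and Cxcl11, was covered by 18 listed genes for ligands, receptors, kinases, factors and inhibitors. Of the 17 tested, 2 were higher, 0 were lower and 15 did not pass, while 3.95% of all genes tested were higher and 3.01% lower. At an unadjusted p under 0.05 the counts were 3 and 1, against 3313 and 1326 of all 16173 genes tested. The median log2 difference was 0.08, against 0.13 over all genes. Irf7, a factor that drives type I interferon genes, gave 0.114 and 0.150 in 4T1-A against 0.627 and 0.447 in 4T1-S, a log2 difference of 2.02 ± 0.24 (limma adjusted p = 0.00285). Irf9, a factor that binds the ISRE, gave 0.462 and 0.620 against 1.61 and 1.65, a difference of 1.60 ± 0.21 (limma adjusted p = 0.00461). A second Irf9 probe, A_52_P176013, gave 0.175 and 0.186 against 0.333 and 0.276, a difference of 0.75 ± 0.20 that did not pass (95% interval 0.28 to 1.21, limma adjusted p = 0.08 over all probes), and the mean of both probes gave 1.18. On each of these probes both 4T1-S arrays lay above both 4T1-A arrays, but the sub-lines also did not overlap for 59.1% of all genes tested. Both calls were lost with no filter on background (adjusted p = 0.0562 for Irf7 and 0.057 for Irf9), and that of Irf9 also without 4T1-S replicate 2 (0.0584). Over the alternatives the adjusted p ranged from 2.51e-10 to 0.0562 for Irf7 and from 5.78e-07 to 0.0584 for Irf9.

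Irf1, the brightest gene of the interferon list that did not pass, had a log2 difference of 0.12 ± 0.21 (95% interval -0.36 to 0.61, limma adjusted p = 0.737). The interferon genes Ifnb1 and Ifng were at or near the detection limit: Ifnb1 was above background on 1 array and was not tested, and Ifng, above it on 3, differed by 0.47 ± 0.21 (95% interval -0.03 to 0.97, limma adjusted p = 0.197).

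Signalling to NF-kappaB, which drives Cxcl1, Cxcl2 and Cxcl5, was covered by 23 genes. Of the 20 tested, each by its brightest probe, 0 were higher, 1 was lower and 19 did not pass. At an unadjusted p under 0.05 the counts were 4 and 3, against 3313 and 1326 of all 16173 genes tested. The median log2 difference was 0.12. Il1a, the cytokine interleukin-1 alpha, gave 0.183 and 0.178 in 4T1-A against 0.0742 and 0.0516 in 4T1-S, where 1 of 2 arrays was above background. It entered the test only through 4T1-A, where it was higher. Its log2 difference was -1.55 ± 0.22 (limma adjusted p = 0.00741). The call was lost with normexp (-0.35, adjusted p = 0.143), with no filter on background (0.076) and without 4T1-S replicate 2 (-1.28, 0.0676), and adjusted p ranged from 2.98e-05 to 0.143 over the alternatives. Rela, the p65 subunit and the brightest gene of this list that did not pass, differed by 0.07 ± 0.18 (95% interval -0.35 to 0.49, limma adjusted p = 0.834). Il1b, Tnf and Rel were not tested.

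Proteins that bind and destabilise or stabilise chemokine transcripts were covered by 8 genes. Of the 7 tested 0 passed in limma's fit, and 0 had an unadjusted p under 0.05. Their median log2 difference was 0.15, and the brightest, Hnrnpd, differed by 0.19 ± 0.18 (95% interval -0.23 to 0.62, adjusted p = 0.528). Zfp36, which encodes the decay factor tristetraprolin, was uneven between replicate arrays, at 0.892 and 4.14 in 4T1-A against 1.02 and 2.23 in 4T1-S, and was named after its values were seen.

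Proteases that release or trim chemokines, with their regulators, numbered 12, of which 5 were tested and 0 passed in limma's fit (0 at an unadjusted p under 0.05). Adam17, named after its value was seen as a sheddase of Cx3cl1, differed by 0.30 ± 0.20 (95% interval -0.15 to 0.75, adjusted p = 0.345). Adam10, named in the same way, differed by -0.31 ± 0.29 (95% interval -0.98 to 0.36, adjusted p = 0.515). Mmp9, a gelatinase that trims Cxcl5 and the brightest gene of this list, differed by 0.10 ± 0.20 (95% interval -0.37 to 0.56, adjusted p = 0.783).

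Glycosaminoglycan carriers and the enzymes that build their chains hold chemokines at the cell surface, and all 11 listed genes were tested. In limma's fit 0 passed (1 higher and 1 lower at an unadjusted p under 0.05), with a median log2 difference of 0.22. Gpc1, a glypican and the brightest of the list, gave 43.0 and 36.9 in 4T1-A against 52.8 and 60.2 in 4T1-S, a difference of 0.50 ± 0.19 (95% interval 0.05 to 0.95, adjusted p = 0.142). Over the receptor, interferon, NF-kappaB, decay, shedding and glycosaminoglycan lists together, 5 of 66 genes tested passed, 3 higher and 2 lower. This is 7.58%, near the 6.96% of all genes tested. With the mean of all probes, and also with every probe fitted, 7 of the 66 passed, 5 higher and 2 lower. Of all 16195 genes, 1324 and 947 passed in these settings. With scaling to the array median the small differences of Irf1, Rela, Hnrnpd and Mmp9 turned negative. Second probes of these genes gave -0.12, -0.14, -0.21 and -0.41, and none passed in limma's fit of all probes.

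**Figure D4:**
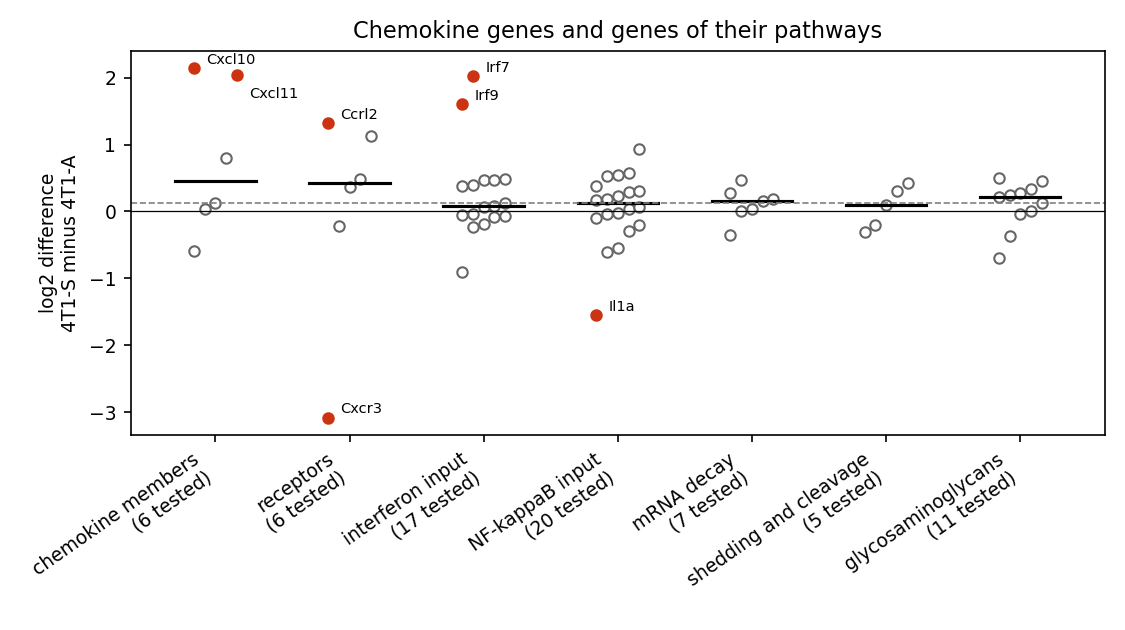
Log2 difference, 4T1-S minus 4T1-A, of each tested gene of the members and of the 6 related lists with tested genes, with filled red points for genes that passed in limma's fit, a black bar at each list's median and a dashed line at the median of all genes, 0.13. The genes that passed are Cxcl10, Cxcl11, Ccrl2, Irf7 and Irf9 above 0 and Cxcr3 and Il1a below it.

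**Figure D5:**
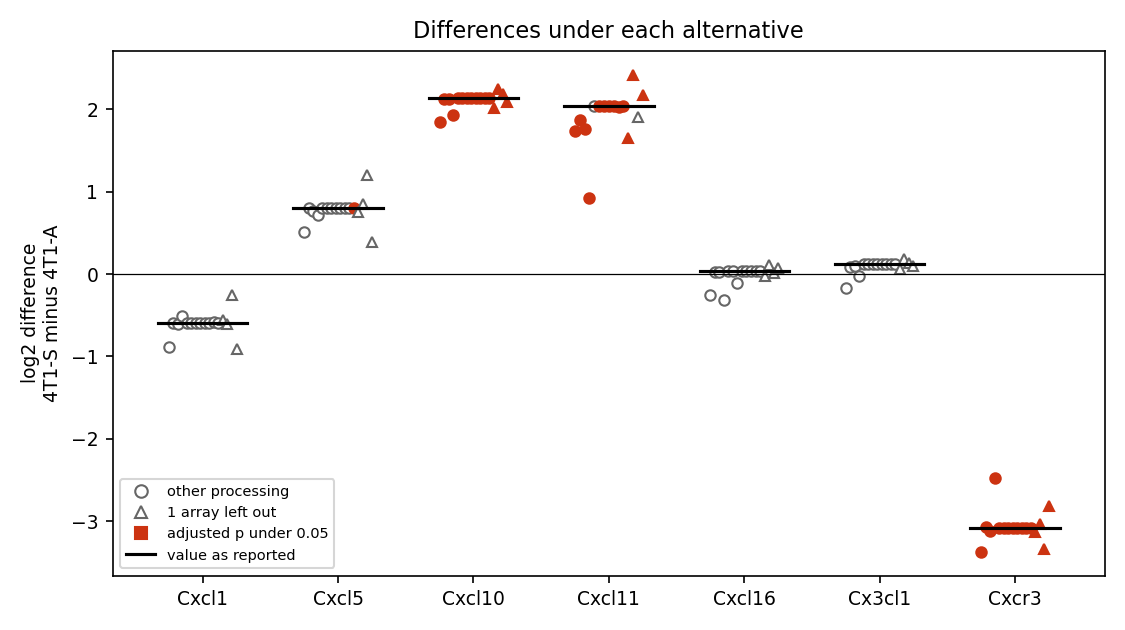
Log2 difference, 4T1-S minus 4T1-A, of the 6 members tested and of Cxcr3 under other processing (circles) and with 1 array left out (triangles), in red where the adjusted p was under 0.05, with a black line at the value as reported. Cxcl10 and Cxcr3 are red throughout, Cxcl11 spans 0.92 to 2.42 with 2 open points, Cxcl5 is red in 1 alternative, and Cxcl16 and Cx3cl1 lie on both sides of 0.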

How the data were processed

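Spot intensity was extracted with Agilent Feature Extraction 9.1, per the submitters' processing notes. Per the file headers it was background-subtracted and spatially detrended. The well-above-background, significance and outlier flags and the processed signal error are columns of the deposited files. A series table deposited by the authors gives a linear ratio that equals intensity over its array's 75th percentile, as found from the values. It served as an alternative.

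The log2 of processed intensity was taken relative to each array's 75th percentile, without 5 to 9 outlier spots per array. The probe with the highest mean stood for a gene. Genes were tested where this probe was well above background on 2 of 2 arrays in 4T1-A, in 4T1-S or in both. The comparison used limma 3.58.1 (lmFit, eBayes, 2-sided; prior degrees of freedom 5.71, residual 2), R 4.3.3 and the package data.table (version 1.17.8), adjusted by Benjamini-Hochberg over 16173 genes (threshold 0.05). The procedure was run on simulated data, and its power at the spread of these arrays is not reported here. Names came from RefSeq by accession (22951 probes) or symbol (9768), else from the file (8455).

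Members and lists were chosen with earlier results of these data known. The text names each member, up to 4 passing genes and the brightest other tested gene per list, and the receptors Cxcr2, Cxcr3, Cxcr4, Cxcr6, Ackr3 and Cx3cr1. Genes of the list of cell type markers are named as markers. The counts of lists cover 1 gene whose own result is not reported here. Alternatives changed normalization, background correction, filter, probe rule, variance model, outlier spots, value table, replicate block and the arrays included. The normexp background correction used an offset of 50, which shrinks the differences of dim spots.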

Additional observations from a re-analysis of the deposited data

How the results depend on the processing

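Of the 10 members 2 passed. The count was 1 with no filter on background and 1 with genes above background on all 4 arrays, where Cxcl11 was not tested, and ranged from 1 to 2 with 1 array left out. Over all genes, 1126 passed, against 730 with quantile normalization, 508 with normexp, 271 with no filter on background, 611 with genes above background on all 4 arrays and 310 to 1823 with 1 array left out. The highest came without 4T1-A replicate 2, 359 passed without 4T1-S replicate 1, and the lowest came without 4T1-S replicate 2. The split of higher to lower calls, 639 to 487, was 189 to 887 with scaling to the median, 266 to 464 with quantile normalization and 250 to 534 with cyclic loess. The median difference of all genes was -0.16, 0.07 and 0.03 in these, against 0.13. The related lists had 5 calls, against 8 with scaling to the median, 2 with no filter, 3 with genes above background on all 4 arrays and 2 to 8 with 1 array left out.

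Signs turned for some differences that had not passed. With scaling to the median these were Cxcl16 (-0.25), Cx3cl1 (-0.17), Rela (-0.22), Hnrnpd (-0.10), Irf1 (-0.17) and Mmp9 (-0.19). With the mean of all probes they were Cxcl16 (-0.11), Rela (-0.04), Hnrnpd (-0.01) and Mmp9 (-0.16), and with normexp Cxcl16 (-0.31) and Cx3cl1 (-0.02). With 1 array left out, Cxcl16 ranged from -0.02 to 0.11, Irf1 from -0.08 to 0.32 and Mmp9 from -0.07 to 0.27. The cause was not tested. Of the single-gene results under the alternatives, 254 kept direction and side of the threshold, 15 lost the call, 1 gained it and 15 turned sign.

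The replicate numbers of the labels gave a correlation of 0.42 between the deviations of same-numbered arrays over 16173 genes. With only 2 pairs, and no label that says what a number marks, what same-numbered arrays have in common is not known. With the replicate block, 3683 genes passed, among them 3 members (Cxcl10, Cxcl11 and Cxcl5, adjusted p = 0.0316) and 13 genes of the related lists. Leaving out an array leaves its sub-line with 1, which is assumed to vary like the other. The number of arrays and, for Cxcl11, Ccrl2 and Il1a, signals near background limit the precision.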
